A study of Rattus norvegicus with 6 samples.

Results

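The sodium pump (Na,K-ATPase) is built from a catalytic alpha subunit, a glycosylated beta subunit that carries the complex to the cell surface, and in many tissues a small single-pass FXYD protein that tunes its kinetics. The pump sets the sodium and potassium gradients on which epithelial transport, cell volume and membrane voltage rest. In epithelia it sits in the basolateral membrane, where beta subunits of neighbouring cells also touch and help cells adhere. FXYD proteins are named after a shared motif (phenylalanine, any residue, tyrosine, aspartate), and each family member has its own tissue pattern. Described here are 7 rat genes of this system: the FXYD genes Fxyd1, Fxyd2, Fxyd3, Fxyd5 and Fxyd6, and the beta subunit genes Atp1b1 and Atp1b3. They are 7 of 14217 genes that the array annotation assigns to a probe set alone, and they were taken by name, each with every probe set that names it and no other gene. The probe set with the highest mean over the 6 arrays stands for the gene. Measured values therefore chose between probe sets only for Atp1b1, which has 2, since the other 6 genes have 1 each. All 7 lay above the brightness filter used for testing, a mean log2 level of 2.67 that leaves out the dimmest 40% of probe sets. The 7 names were selected on levels and hCG minus Control differences already seen on these arrays. The values and p-values below therefore describe the arrays and are no independent evidence of a response. Levels of different probe sets are not set against each other, because probes differ in brightness.

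The samples were mammospheres, floating balls of cells grown in dishes to which cells cannot attach. They came from female Sprague Dawley rats, and RNA was measured on Affymetrix 3′ arrays after a labelling with amplification. The hCG group came from rats given recombinant human chorionic gonadotropin, a pregnancy hormone that acts on the ovary, injected into the abdomen at a daily dose of 100 IU for 21 days, starting at an age of 55 days. The Control group came from rats injected with phosphate buffered saline on the same schedule. In both groups glands 4 and 5 were removed 21 days after the last injection, and a suspension enriched for mammary epithelial cells was grown for 7 days with EGF, basic FGF and heparin. Each group holds 3 arrays, numbered 5, 6 and 7. The design speaks of 3 animals per group, but no label ties an array to an animal. The p-values thus set the difference between groups against the spread between arrays of a group, and part of that spread may be technical. The comparison asks what differs in spheres grown after the hormone treatment had ended.

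Arrays of one group correlated between 0.980 and 0.994 over the tested probe sets, and arrays of different groups between 0.967 and 0.984. Bacterial poly-A transcripts, added before labelling, averaged 4.14 ± 0.30 on hCG arrays and 5.07 ± 0.12 on Control arrays (log2 signal, SD, n = 3 each) and did not overlap. RNA integrity, read as the log2 signal of the 3′ less that of the 5′ probe set for Actb, was 1.60, 1.75 and 1.55 on hCG arrays 5, 6 and 7, against 1.65, 1.46 and 2.18 on Control arrays 5, 6 and 7. The same measure for Gapdh was 0.048, 0.16 and 0.11 on hCG arrays 5, 6 and 7, against 0.22, 0.11 and 0.67 on Control arrays 5, 6 and 7. Control 7 was the highest array on both measures, and it was also the lowest Control array for Fxyd2, Fxyd6 and Atp1b3, so those 3 genes are given with and without it; the part of RNA integrity in them was not tested. The spike level moved with the groups in every result below, and its part in them was not tested. The labelled cell type was checked against marker lists. Of 12 pan-luminal markers 10 lay above the filter, Epcam, Krt8 and Krt18 among them, and so did 10 of 12 basal markers, Krt5 and Krt14 among them. All 9 fibroblast markers and 11 of 12 endothelial markers also lay above it, so RNA of other cell types was read as well.

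FXYD genes lie side by side in the rat genome. In the gene order of the GRCr8 assembly, chromosome 1 carries Fxyd5, Fxyd7, Fxyd1, Lgi4 and Fxyd3 in a row among protein-coding genes, and chromosome 8 carries Fxyd6 directly before Fxyd2. Atp1b3 lies elsewhere on chromosome 8 and Atp1b1 on chromosome 13. The RefSeq promoter table holds windows of 300 bases, from 250 before an annotated start to 50 after it, for 4 of the 7 genes. Printed here are Fxyd1, the gene that rose, and Fxyd6 with Atp1b3, the pair with the most similar values across arrays. Each is written 5′ to 3′ along the gene, and capitals mark the GC box GGGCGG and the CCAAT box CCAAT on either strand. The TATA box TATAAA was also searched and was in none of the 3.
Fxyd1, chr1:95418531-95418830, minus strand: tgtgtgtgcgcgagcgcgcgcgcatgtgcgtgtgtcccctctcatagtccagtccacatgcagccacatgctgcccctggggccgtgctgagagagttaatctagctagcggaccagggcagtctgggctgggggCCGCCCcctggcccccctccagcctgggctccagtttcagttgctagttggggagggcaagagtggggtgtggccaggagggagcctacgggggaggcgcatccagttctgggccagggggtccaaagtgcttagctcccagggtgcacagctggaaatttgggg
Fxyd6, chr8:54575575-54575874, plus strand: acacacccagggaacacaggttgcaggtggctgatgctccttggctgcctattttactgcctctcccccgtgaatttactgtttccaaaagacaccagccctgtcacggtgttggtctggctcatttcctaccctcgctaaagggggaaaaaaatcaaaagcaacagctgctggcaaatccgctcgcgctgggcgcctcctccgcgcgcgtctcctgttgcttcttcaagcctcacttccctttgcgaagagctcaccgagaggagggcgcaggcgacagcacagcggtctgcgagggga
Atp1b3, chr8:105821102-105821401, minus strand: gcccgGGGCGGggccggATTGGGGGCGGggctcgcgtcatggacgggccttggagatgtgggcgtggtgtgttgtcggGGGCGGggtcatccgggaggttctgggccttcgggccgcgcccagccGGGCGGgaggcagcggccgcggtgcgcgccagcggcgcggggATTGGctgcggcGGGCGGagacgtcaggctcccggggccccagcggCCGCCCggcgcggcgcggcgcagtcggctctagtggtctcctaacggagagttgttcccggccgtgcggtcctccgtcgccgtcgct

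The Atp1b3 window had 77.7% G and C and held 6 GC boxes and 2 CCAAT boxes, none of which overlap, although 1 CCAAT box directly precedes a GC box. The Fxyd1 window had 65.3% G and C with 1 GC box, and the Fxyd6 window had 57.7% with none of these motifs. Among all 33469 windows in the table the median was 51.7%, and 33.1% held a GC box, 37.5% a CCAAT box and 14.2% a TATA box. Atp1b3 and Fxyd6, whose array values were closest, thus had windows of different composition. These matches are a description of letters only.

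Of the 7 genes, 2 passed the test over all genes, Fxyd2 lower and Fxyd1 higher in hCG spheres, at an adjusted p under 0.05 (limma, Benjamini-Hochberg). The same test called 190 of 10424 genes, or 1.82%, with 1.01% higher and 0.815% lower. The other 5 genes did not pass. In 5 of the 7 genes the 3 hCG arrays lay outside the range of the 3 Control arrays, 1 higher (Fxyd1) and 4 lower (Fxyd2, Fxyd5, Fxyd6 and Atp1b3). Across all tested genes this held for 31.6%, with 19.3% higher and 12.3% lower. The median log2 change was -0.61 over the 7 genes and 0.03 over all 10424. Directions of all 7 were unchanged under median centring, quantile normalization and cyclic loess. Because whole spheres were measured, fewer cells that express a gene and less of its RNA per cell cannot be told apart.

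**Figure D1:**
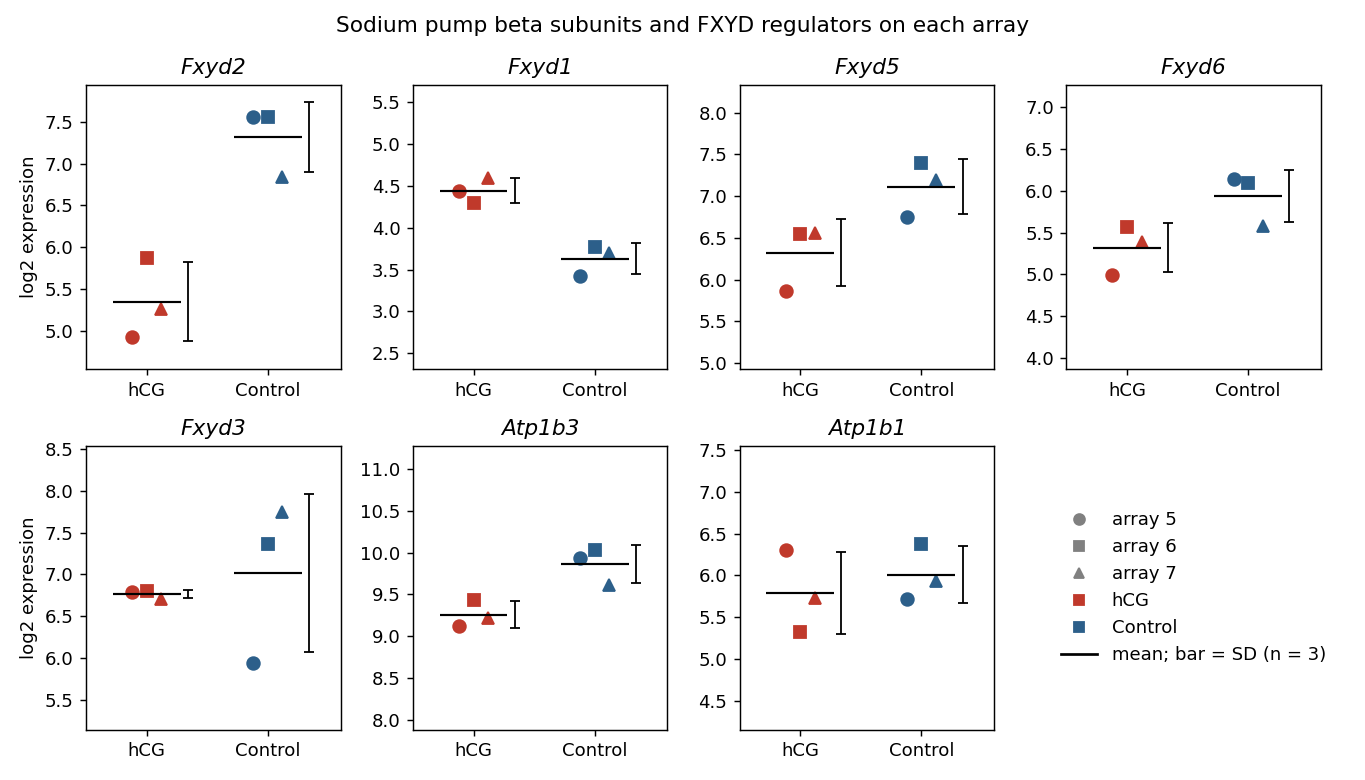
Log2 expression of the 7 genes on each array, hCG left and Control right in every panel, with array numbers as symbols, the group mean as a line and its SD as a bar (n = 3); every panel spans 3.4 log2 units. The groups are apart in Fxyd2, Fxyd1, Fxyd5, Fxyd6 and Atp1b3, and the 3 Control arrays of Fxyd3 spread over 1.80 log2 units around 3 nearly equal hCG arrays.

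Fxyd2 encodes the pump's gamma subunit, best known from the kidney tubule, where it lowers the pump's affinity for sodium. Its probe set 1387799_at read 4.92, 5.86 and 5.25 on hCG arrays 5, 6 and 7, against 7.56, 7.55 and 6.84 on Control arrays 5, 6 and 7 (log2 expression). Every hCG array was lower than every Control array, with a gap of 0.97 between the nearest values. hCG 6 stood highest in its group and Control 7 lowest in its own. Means were 5.35 ± 0.48 in hCG spheres and 7.32 ± 0.42 in Control spheres (SD, n = 3 each). The log2 change was -1.97 (SE 0.29, 95% interval -2.65 to -1.29), a level 3.92-fold lower in hCG spheres, and limma's adjusted p was 0.0368. Only 25 of the 10424 tested genes had a more negative change. With 1 array left out the change lay between -2.23 and -1.76. The call was lost without hCG 5, hCG 7, Control 5 or Control 6 (adjusted p = 0.114, 0.179, 0.0940 and 0.124), settings under which limma called 0 genes in all (1455 to 1950 at an unadjusted p under 0.05). It held without hCG 6, at -2.23 (adjusted p = 0.0276), and without Control 7, at -2.21 (adjusted p = 0.0221).

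The array profile of Fxyd2 was most like that of 3 other genes, measured as the distance between log2 values after subtracting each gene's mean over the 6 arrays. Likeness in array order and direction largely follows from this choice, here and for the nearest genes below. The nearest was Slco4a1, an organic anion transporter (distance 0.49 log2 units), followed by Sez6l (0.53) and Slc47a1, which extrudes organic cations (0.57). Slco4a1 read 8.11, 9.21 and 8.55 on hCG arrays, against 10.34, 10.54 and 9.80 on Control arrays. Slc47a1 read 7.14, 8.75 and 7.74 on hCG arrays, against 10.35, 10.21 and 9.24 on Control arrays. Like Fxyd2, these genes were highest on hCG 6 within the hCG group, and Control 7 was the lowest Control array. Their log2 changes were -1.60, -1.63 and -2.06, and none passed limma's test over all genes (adjusted p = 0.0540, 0.0600 and 0.0663). Of 7 markers of hormone-sensing luminal cells on the array 6 lay below the filter, Esr1, Pgr, Prlr and Foxa1 among them, and the remaining one, Areg, read between 6.45 and 7.48 on hCG arrays and between 6.58 and 7.81 on Control arrays. Luminal progenitor markers, 5 of 7 above the filter, summed to between 1739 and 2422 on hCG arrays and between 3421 and 4198 on Control arrays (linear signal), with Kit and Elf5 below the filter. Macrophage markers, 5 of 9 above it, summed to between 101 and 167 on hCG arrays and between 191 and 396 on Control arrays, with Csf1r, Cd163, C1qa and C1qb below it. Neither pair of sums overlapped. Of the 5 luminal progenitor genes, however, only Cd14 had groups that did not overlap, and 0 passed. Cxcl1 and Lcn2, the brightest of these genes and so the largest parts of their sum, each had overlapping groups. The macrophage genes did not move as one: Cd68, which carried the sum, had a log2 change of -1.33 and Ptprc one of -1.09, whereas Adgre1 had 0.65 and Tyrobp 0.55, and 0 of the 5 passed. Averaged over the 5 genes, log2 levels less the Control mean were -0.64, 0.07 and -0.25 on hCG arrays, against 0.42, -0.20 and -0.22 on Control arrays, which overlap. The part of these cells in the values of Fxyd2, Fxyd5, Fxyd6 and Atp1b3 was not tested.

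Fxyd1 encodes phospholemman, the FXYD protein of heart and skeletal muscle and a substrate of protein kinases A and C. Its probe set 1369960_at read 4.44, 4.30 and 4.60 on hCG arrays 5, 6 and 7, against 3.42, 3.77 and 3.69 on Control arrays 5, 6 and 7 (log2 expression). Every hCG array was higher than every Control array, by at least 0.53. The means were 4.45 ± 0.15 in hCG spheres and 3.63 ± 0.18 in Control spheres (SD, n = 3 each). Fxyd1 rose by a log2 change of 0.82 (SE 0.13, 95% interval 0.52 to 1.12), which is 1.76-fold, with a limma adjusted p of 0.0382. Leaving out the dimmest 60% of probe sets removed it from the test. With 1 array left out the change lay between 0.71 and 0.89. The call was lost without hCG 5, hCG 7, Control 5 or Control 6 (adjusted p = 0.118, 0.194, 0.0865 and 0.113) and held without hCG 6 or Control 7 (0.0387 and 0.0393).

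The genes nearest to Fxyd1 in profile were Prorsd1 (distance 0.18), the chromatin remodeller Chd9 (0.24) and the receptor gene Notch1 (0.26). Notch1 read 7.85, 7.53 and 7.79 on hCG arrays, against 6.81, 7.03 and 7.18 on Control arrays, a log2 change of 0.71 (SE 0.13). The 3 genes were also higher on every hCG array, which their choice by distance favours. None passed limma's test over all genes, with an adjusted p of 0.0668 for Prorsd1. Chd9 and Notch1 had values just above the threshold and passed after median centring. Endothelial markers were also higher on hCG arrays on average. Of the 11 above the filter 6 were called higher, as were 1.01% of all tested genes. Averaged over the list, log2 levels less the Control mean were 1.15, 1.24 and 1.14 on hCG arrays 5, 6 and 7. On Control arrays 5, 6 and 7 they were -0.34, -0.13 and 0.46. Within its groups Fxyd1 was lowest on hCG 6 and highest on Control 6. Sox17, one of these markers, had a Control mean of 2.23, below the filter. Their 11 markers above the filter, of 12 on the array, summed to between 557 and 626 on hCG arrays and between 176 and 311 on Control arrays (linear signal), and Tie1 lay below the filter. The 10 basal and myoepithelial markers summed to between 520 and 637 on hCG arrays and between 226 and 533 on Control arrays, which overlap, with Cnn1 and Oxtr below the filter. Fibroblast markers, 9 of 9 above the filter, summed to between 26285 and 27941 on hCG arrays and between 24004 and 24880 on Control arrays. They did not move as one: 6 had a log2 change above 0 and 3 below. Lum was called higher (1.13, limma adjusted p = 0.0373) and Dpt lower (-0.99, adjusted p = 0.0375). Of 6 pericyte markers 4 lay above the filter, and their sums overlapped, at 153 to 170 on hCG arrays and 113 to 188 on Control arrays. Rgs5, one of them, rose by a log2 change of 0.66 (limma adjusted p = 0.0439), and Cspg4 and Kcnj8 lay below the filter. Averaged over the 4 genes, log2 levels less the Control mean were 0.36, 0.37 and 0.54 on hCG arrays, against -0.11, 0.12 and -0.01 on Control arrays, with no overlap. However, Rgs5 and Abcc9 lay above the filter only through their hCG means, as their Control means of 2.47 and 2.59 lay below it. The filter thus favoured a rise in this average and in Rgs5. The part of these cell types in the Fxyd1 result was not tested. Skeletal muscle markers, 4 of 6 above the filter, summed to between 147 and 249 on hCG arrays and between 176 and 215 on Control arrays, which overlap. The 4 were Acta1, Myl11, Tnnt3 and Myh1, of which 0 passed, and Myh4 and Ckm lay below the filter in both groups. The part of muscle RNA in the Fxyd1 result was not tested either.

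Fxyd5 encodes dysadherin, a FXYD protein with a long extracellular part, known for lowering cell adhesion through E-cadherin. Its probe set 1368207_at read 5.86, 6.55 and 6.56 on hCG arrays 5, 6 and 7, against 6.75, 7.40 and 7.20 on Control arrays 5, 6 and 7 (log2 expression). The groups did not overlap, but the gap was 0.19, smaller than the spread within either group, and array 5 was the lowest in both. Means were 6.32 ± 0.40 in hCG spheres and 7.11 ± 0.33 in Control spheres (SD, n = 3 each). The log2 change was -0.79 (SE 0.24, 95% interval -1.36 to -0.23) and did not pass (limma adjusted p = 0.117). Its nearest profiles were Smad7 (distance 0.25) and Otulinl (0.27), followed by Pmepa1 (0.32). Smad7 and Pmepa1 both encode proteins induced by TGF-beta that restrain its signal. Smad7 read 4.45, 5.07 and 4.84 on hCG arrays, against 5.23, 5.81 and 5.54 on Control arrays, with array 5 again lowest in each group. The log2 changes of the 3 genes were -0.74, -0.63 and -0.63, with adjusted p = 0.0987, 0.116 and 0.194.

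Fxyd6 encodes phosphohippolin, first described in brain. Its probe set 1370248_at read 5.00, 5.57 and 5.39 on hCG arrays 5, 6 and 7, against 6.14, 6.10 and 5.58 on Control arrays 5, 6 and 7 (log2 expression). The groups did not overlap by only 0.01, between hCG 6 and Control 7. The log2 change was -0.62 (SE 0.20, 95% interval -1.10 to -0.15), with a limma adjusted p of 0.132. Without Control 7 it was -0.80 (adjusted p = 0.0563). Fxyd2, its neighbour on chromosome 8, fell by 1.97 on the log2 scale. Cep164, the next protein-coding gene with a tested probe set, had a change of -0.21 (SE 0.08, adjusted p = 0.163). The genes nearest in profile to Fxyd6 were Insig2, which holds back sterol synthesis, Cd9, a tetraspanin of the cell surface, and Bltp3b, each at a distance of 0.17. Their changes were -0.53, -0.57 and -0.63, with adjusted p = 0.128, 0.157 and 0.0843.

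Fxyd3 encodes Mat-8, first cloned from mouse mammary tumours and expressed in many epithelia. Its probe set 1389360_at read 6.79, 6.80 and 6.70 on hCG arrays 5, 6 and 7, against 5.94, 7.37 and 7.74 on Control arrays 5, 6 and 7 (log2 expression). The hCG arrays lay within 0.09 of each other and inside the Control range, which spanned 1.80. A smaller range over the 3 Control arrays was seen in 99.6% of tested genes. The log2 change was -0.25 (SE 0.42, 95% interval -1.26 to 0.76, limma adjusted p = 0.755), so neither a rise nor a fall could be told from the spread between Control arrays. The value turned on single arrays, at -0.79 without Control 5 (adjusted p = 0.0885) and 0.11 without Control 7 (adjusted p = 0.874).

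The gene nearest to Fxyd3 was Epcam, the adhesion molecule used to recognise epithelial cells, at a distance of 0.20. Epcam read 7.17, 7.06 and 6.90 on hCG arrays, against 6.36, 7.62 and 7.97 on Control arrays. Control 5 was the lowest and Control 7 the highest array for both genes. The next were Tfap2c, a transcription factor of luminal cells (0.37), and the serine protease gene Prss22 (0.38). The pan-luminal list, which includes Epcam, followed the same order among Control arrays on average, although its genes Cd24 and Elf3 were highest on Control 6. This order was not particular to luminal markers. The basal and endothelial list averages had it too, with basal markers at -0.69, 0.16 and 0.53 on Control arrays 5, 6 and 7. Fibroblast, pericyte and macrophage averages did not. Averaged over the pan-luminal genes, log2 levels less the Control mean came to -0.34, -0.50 and -0.64 on hCG arrays 5, 6 and 7, against -0.76, 0.17 and 0.59 on Control arrays 5, 6 and 7. The 10 of 12 pan-luminal markers above the filter summed to between 576 and 655 on hCG arrays and between 592 and 1289 on Control arrays (linear signal), and Ehf and Muc1 lay below the filter. Of these 10 markers 1 passed, Cd24, which was lower in hCG spheres (log2 change -1.42, limma adjusted p = 0.0289). The part of luminal, basal or other cell content in the Fxyd3 values was not tested. On chromosome 1 Fxyd3 and Fxyd1 are parted only by Lgi4, whose groups overlapped (log2 change 0.16, SE 0.14, adjusted p = 0.527).

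**Figure D2:**
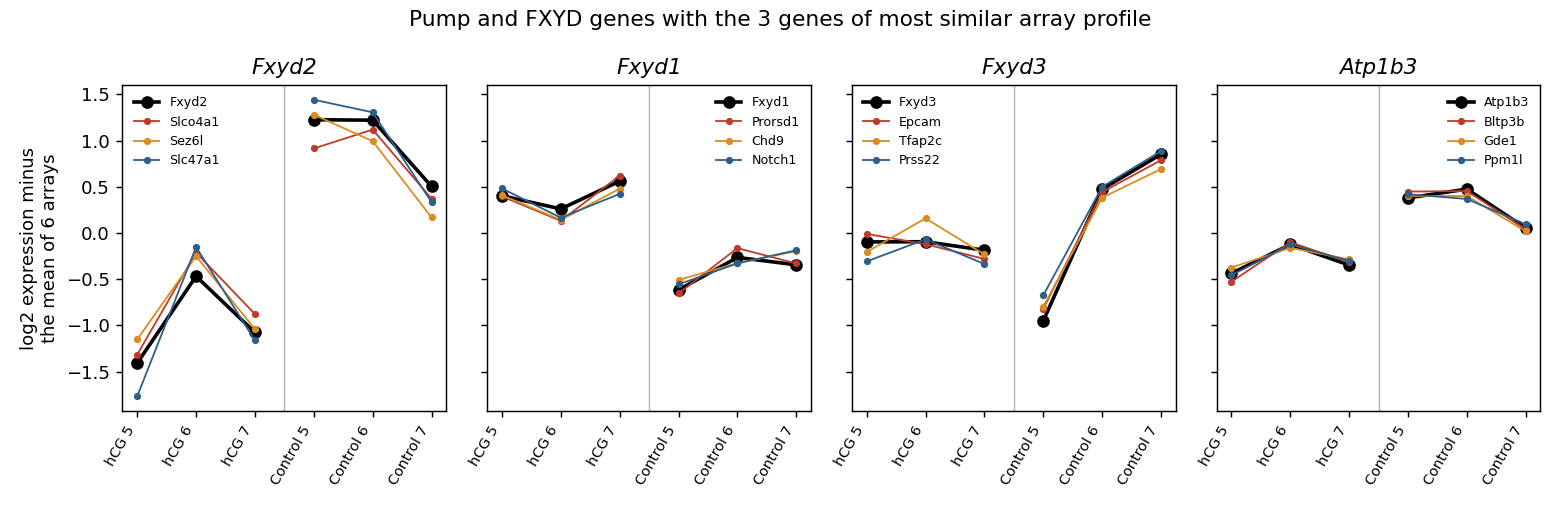
Log2 expression minus each gene's mean over the 6 arrays for Fxyd2, Fxyd1, Fxyd3 and Atp1b3 (black) and the 3 genes nearest to each (colours); lines join arrays of one group only to help the eye. Fxyd3 and Epcam are low on Control 5 and high on Control 7, whereas Fxyd2 is lower on all 3 hCG arrays.

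The beta subunits carry the catalytic subunit out of the endoplasmic reticulum, and Atp1b1 is the usual form in epithelia. Atp1b3, a widely expressed form, read 9.13, 9.44 and 9.21 on hCG arrays 5, 6 and 7, against 9.94, 10.04 and 9.61 on Control arrays 5, 6 and 7 (log2 expression, probe set 1398300_at). All hCG arrays were lower, with a gap of 0.18 between hCG 6 and Control 7. Means were 9.26 ± 0.16 in hCG spheres and 9.86 ± 0.22 in Control spheres (SD, n = 3 each). The log2 change was -0.61 (SE 0.14, 95% interval -0.94 to -0.27) and missed the threshold (limma adjusted p = 0.0726). It passed without Control 7, at -0.73 (adjusted p = 0.0368). Across the 6 arrays Atp1b3 and Fxyd6 were the closest pair among the 7 genes, at a distance of 0.28, and Bltp3b was among the 3 nearest genes of both. Nearest to Atp1b3 were Bltp3b (0.12), Gde1 (0.13) and the phosphatase gene Ppm1l (0.13), with log2 changes of -0.63, -0.55 and -0.59 and adjusted p = 0.0843, 0.0761 and 0.0639. Its tested chromosome neighbours Tfdp2 and Rnf7 had changes of 0.10 and 0.12 (adjusted p = 0.715 and 0.417).

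Atp1b1 was read by 2 probe sets. The brighter, 1386937_at, read 6.30, 5.33 and 5.73 on hCG arrays 5, 6 and 7, against 5.72, 6.38 and 5.93 on Control arrays 5, 6 and 7 (log2 expression). The other, 1367814_at, read 5.56, 4.43 and 4.81 on hCG arrays 5, 6 and 7, against 4.86, 5.82 and 5.03 on Control arrays 5, 6 and 7. Both ranked the arrays alike within each group, with hCG 5 high and hCG 6 low, Control 6 high and Control 5 low, and both had overlapping groups. Their log2 changes were -0.22 (SE 0.27, 95% interval -0.86 to 0.42) and -0.30 (SE 0.35, 95% interval -1.12 to 0.52). The brighter had a limma adjusted p of 0.654. Without hCG 6 its change was 0.0061, and without hCG 5 it was -0.48. The nearest profiles were those of Klf5 (distance 0.41) and Elf3 (0.45), both transcription factors of epithelial cells, and Tlcd1 (0.47). Dpt, a matrix protein gene that lies next to Atp1b1 on chromosome 13, fell by 0.99 on the log2 scale (SE 0.15, limma adjusted p = 0.0375), or by 0.73 with its probe sets averaged (adjusted p = 0.0810), while Nme7 on the other side had a change of 0.10 (adjusted p = 0.569).

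**Figure D3:**
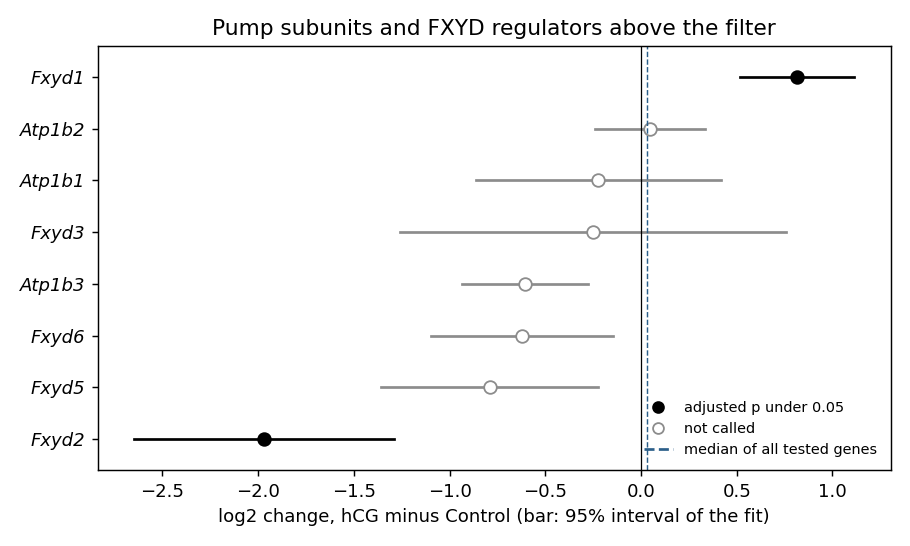
Log2 change, hCG minus Control, with its 95% interval from the fit, for the 8 pump and FXYD genes above the filter; filled points passed at an adjusted p under 0.05 and the dashed line is the median of all tested genes (0.03). Fxyd1 (0.82) and Fxyd2 (-1.97) are filled, and the intervals of Atp1b1, Atp1b2 and Fxyd3 include 0.

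Other genes of the family lay below the filter or did not pass. Atp1b2, the beta subunit of glia and neurons, read 5.01, 4.85 and 4.84 on hCG arrays, against 4.97, 4.61 and 4.96 on Control arrays, a log2 change of 0.05 (SE 0.12, limma adjusted p = 0.843). Fxyd7, a brain form, lay below the filter, at 1.75 ± 0.09 in hCG spheres and 1.56 ± 0.11 in Control spheres (SD, n = 3 each). So did Fxyd4, a form of colon and kidney collecting duct, Atp1a4, the sperm alpha subunit, and Atp1b4. Their means lay at 2.22, 1.11 and 1.14 in hCG spheres and at 2.23, 1.16 and 1.18 in Control spheres. Tested without the filter, these 4 genes had limma adjusted p between 0.273 and 0.985.

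**Figure D4:**
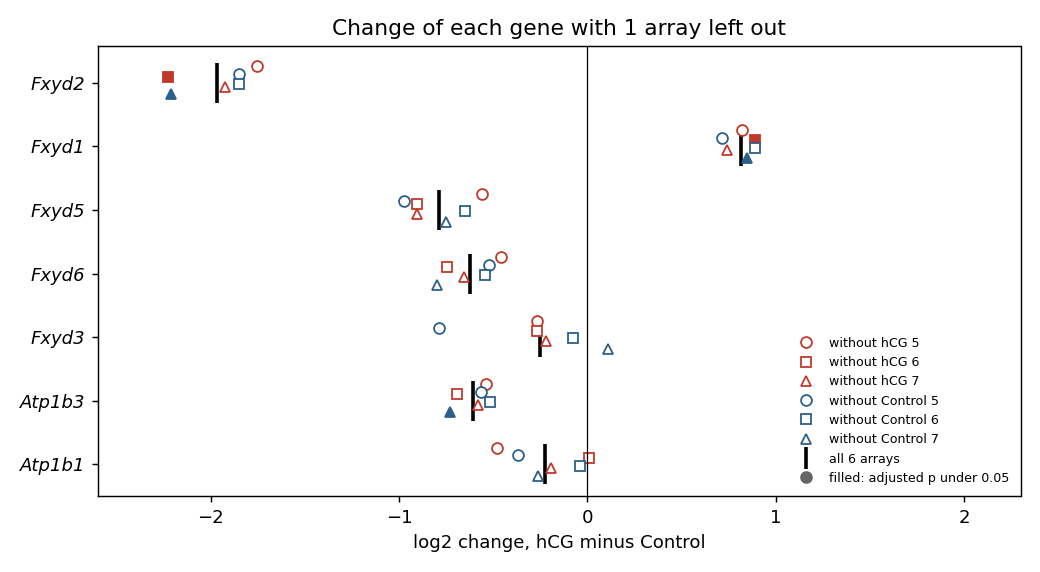
Log2 change, hCG minus Control, of the 7 genes with all 6 arrays (black bar) and with each array left out (symbol and colour); filled symbols passed at an adjusted p under 0.05. Fxyd2 stays between -2.23 and -1.76 and Fxyd1 between 0.71 and 0.89, whereas Fxyd3 runs from -0.79 to 0.11.

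Other genes of sodium and potassium handling were read from lists of 81 further genes, of which 41 lay above the filter. Of these 1 rose and 1 fell, and their median log2 change was -0.05. Kcne3, a single-pass subunit that joins potassium channels and keeps them open, rose. It read 6.01, 6.61 and 6.44 on hCG arrays 5, 6 and 7, against 4.02, 4.31 and 5.22 on Control arrays 5, 6 and 7 (log2 expression), a change of 1.83 (SE 0.31, limma adjusted p = 0.0445), with no overlap. Kcne3 kept this call without Control 7 only, and without hCG 6 the adjusted p was 0.0649. Its relative Kcne4, which damps potassium channels, did not pass (log2 change -0.66, SE 0.19, adjusted p = 0.111), and the other 3 tested potassium channel genes lay between -0.08 and 0.05.

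The fall was that of the inositol transporter Slc5a3, in a list of genes that answer to hypertonic medium. It read 5.14, 5.40 and 5.06 on hCG arrays 5, 6 and 7, against 7.31, 7.92 and 6.80 on Control arrays 5, 6 and 7, a log2 change of -2.14 (SE 0.27, limma adjusted p = 0.0341). The Slc5a3 call was lost without hCG 5, hCG 7, Control 5 or Control 6 (adjusted p = 0.113, 0.174, 0.0787 and 0.102). All 6 measured genes of this list lay below 0 with groups that did not overlap, with a median of -0.48, and 1 of them passed. Over all tested genes 44.2% lay below 0, and 12.3% were lower without overlap. Hspa4l, a chaperone, had a change of -1.25 (SE 0.25, adjusted p = 0.0559), the taurine transporter Slc6a6 one of -0.56 (adjusted p = 0.0771), and Nfat5, the transcription factor of this response, one of -0.29 (adjusted p = 0.181).

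Among kinases, ligases and steroid receptors that act on the pump or on sodium channels, 0 of 9 passed and the median was 0.07. Limma gave an unadjusted p under 0.05 for 2 of these 9, and for 24.1% of all tested genes. Sgk1, a kinase that keeps sodium channels at the surface, read 9.34, 9.17 and 9.26 on hCG arrays, against 8.87, 8.71 and 8.61 on Control arrays, a change of 0.52 (SE 0.10, adjusted p = 0.0540), and the groups did not overlap. Sgk3 and Oxsr1 had changes of 0.42 and -0.21 (adjusted p = 0.142 and 0.221). Of sodium entry genes 0 of 6 passed, with 0 at an unadjusted p under 0.05, and the sodium channel subunits Scnn1a and Scnn1g were below the filter. The bicarbonate cotransporters Slc4a7 and Slc4a4 and the cotransporter Slc12a2 had changes of -0.38, -0.26 and 0.15 (adjusted p = 0.390, 0.435 and 0.553). With 1 array left out, Slc4a7 lay between -0.62 and -0.14 and Slc4a4 between -0.47 and -0.12, lowest without Control 7 and highest without Control 5.

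Of 2 tested genes for pump partners, 0 passed, and 1 had an unadjusted p under 0.05: Nkain3, of a family named for binding the pump's beta subunit, had a change of 1.12 (SE 0.33, adjusted p = 0.115), while Nkain1 had one of -0.20 (adjusted p = 0.462). Of chloride and water channels 0 of 6 passed, with 0 at an unadjusted p under 0.05. Clca1, Clcn3 and Aqp1 had changes of 1.06 (SE 0.49), -0.24 and -0.35 (adjusted p = 0.244, 0.247 and 0.367). Calcium pumps, which share the transport cycle of the sodium pump, also had 0 of 6 calls and 0 at an unadjusted p under 0.05. Atp2b1, Atp2a2 and Atp2c1 had changes of -0.18, -0.08 and 0.09 (adjusted p = 0.282, 0.576 and 0.684).

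**Figure D5:**
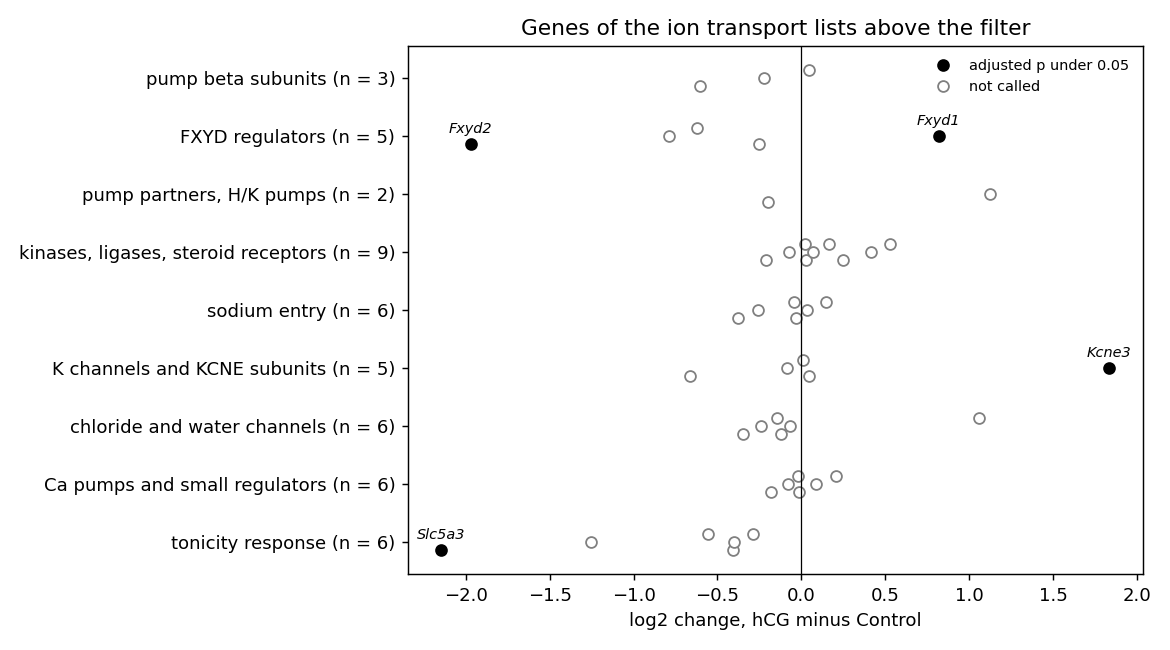
Log2 change, hCG minus Control, of each gene above the filter in the ion transport lists, 1 row per list with its number of genes; filled points passed at an adjusted p under 0.05. The 4 filled points are Fxyd2, Fxyd1, Kcne3 and Slc5a3, and points of the tonicity list all lie below 0.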

How the data were processed

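RNA of 3 hCG and 3 Control mammosphere samples was read on Affymetrix 3′ arrays. The authors' deposited table holds a log2 value for each of 31099 probe sets, with 0 missing values. Per the submitters' processing notes, RMA, MAS5 and limma were used, with no versions or roles given. The log base and normalization are not given in the sources used here; the values (0.74 to 13.1) were read as log2 signals normalized across arrays, which would hide a shift shared by most genes. Column medians were 3.44, 3.46 and 3.45 for hCG 5, 6 and 7, and 3.46, 3.48 and 3.46 for Control 5, 6 and 7. Scanner files were not used here. The number of arrays limits the precision (4 residual degrees of freedom).

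The 57 control probe sets and the dimmest 40% of the others by mean over 6 arrays were left out, leaving 18625. Names came from the platform annotation: 20826 probe sets named 1 gene, 436 several and 9780 none; 20758 symbols were updated by Entrez number to RefSeq GRCr8, also the source of gene order and promoter sequences. Each gene was represented by its brightest probe set (10424 genes) and tested two-sided with limma 3.58.1 (lmFit, eBayes) under R 4.3.3, with Benjamini-Hochberg adjustment over these genes. The script was tested on simulated data. A list's level on an array is the mean log2 value relative to the Control mean, and its sum is the linear signal.

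No label says whether array numbers pair the groups, and no pairing was used. Deviations from the group means of arrays 5, 6 and 7 correlated at -0.09, 0.13 and 0.0015. Between arrays of different number they correlated at -0.19 to 0.18. With 3 arrays per group this cannot settle whether the numbers pair. The 7 genes and the lists were chosen with earlier results of these data known. Named are the 7 genes, all pump and FXYD genes, called genes or otherwise the 3 of smallest p in each other list, and the 3 nearest profiles of each gene; chromosome neighbours and other single genes were picked with their values in view. The alternatives tried were other filters, normalizations, variance models and array weights, the array number as a block, averaged probe sets and each array left out.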

Additional observations from a re-analysis of the deposited data

How the results depend on the processing

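With 1 array left out, limma called 0 to 584 genes (190 with all arrays), 0 to 3 of the 7 pump and FXYD genes (2 with all) and 0 to 4 of the other 41 list genes (2 with all); all 3 counts were 0 without hCG 5, hCG 7, Control 5 or Control 6, and largest without Control 7. Genes called were 118 with the array number as a replicate block, 2663 with array weights and 306 with a variance trend. Of the 7 genes, 4 were called with array weights (Fxyd6 and Atp1b3 joined) and 1 with the dimmest 60% left out, where Fxyd1 was not tested. With the replicate block 2 were called, Fxyd2 and Fxyd5 (adjusted p = 0.0450 and 0.0466), and Fxyd1 was not (0.0647). Whether the numbers pair the samples is not known, and this says nothing on the size of either change. Of the other list genes 4 were called with the replicate block, 13 with array weights and 4 with a variance trend. Of 59 single genes recomputed, log2 changes that changed sign with 1 array left out were those of Fxyd3 (-0.79 to 0.11), Atp1b1 (-0.48 to 0.0061), Atp1b2 (-0.071 to 0.11), Slc12a2 (-0.0027 to 0.22), Atp2c1 (-0.012 to 0.17), Epcam (-0.75 to 0.051), Tfap2c (-0.63 to 0.11), Tlcd1 (-0.27 to 0.30) and Tfdp2 (-0.026 to 0.20). With array weights Atp2c1 (-0.044), Tlcd1 (-0.11) and Tfdp2 (-0.14) changed sign. Adjusting over all probe sets, an alternative chosen after seeing the data, called 177 genes and the same 2 of the 7. Fxyd2 kept its sign in 17 of 17 alternatives and Fxyd1 in the 16 that tested it. The causes were not tested.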
